A study of Arabidopsis thaliana with 13 samples.

Results

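The 9 clade A protein phosphatase 2C (PP2C) genes of Arabidopsis thaliana, ABI1, ABI2, HAB1, HAB2, PP2CA, AHG1, HAI1, HAI2 and HAI3, were examined as places of binding by the blue-light receptor CRY2 and the bHLH transcription factors PIF4 and PIF5. They were chosen by name, as 9 of the 27444 nuclear protein-coding genes in the gene table, and all 9 locus tags carried the same names there. A peak belonged to a gene when any part of it overlapped the gene or lay within 3 kb of it, which gave 45 peaks, none of them shared between members.

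Clade A PP2Cs are the brake of abscisic acid signalling. Without the hormone they hold SnRK2 protein kinases inactive by removing phosphate groups. When abscisic acid binds its PYR/PYL receptors, the receptors dock onto most of the phosphatases and block them, the kinases are released and bZIP factors of the ABF/ABI5 group are phosphorylated. Many genes of the clade are themselves induced by abscisic acid, and in seedlings the hormone restrains germination, growth and water loss. PIFs bind G-box and related elements and promote elongation in shade and weak light, while cryptochromes absorb blue light and restrain it.

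The chromatin immunoprecipitation sequencing libraries came from whole seedlings of ecotype Columbia, grown for 5 days in continuous white light and then held in low blue light for 16 h. The CRY2 line (UBQ10pro::Flash-CRY2, labelled 3xFlag-6xHis-CRY2) gave 2 FLAG and 2 IgG libraries, the PIF4 line (PIF4-3xFlag-6xHis) 3 FLAG and 2 IgG libraries, and the PIF5 line (PIF5-Flash(9xMyc-6xHis-3xFlag)) 2 FLAG and 2 IgG libraries. Every group carried a tagged transgene and received the same light treatment, and each IgG control came from the same line as its FLAG libraries. The UBQ10 promoter is active in most tissues and is not the promoter of CRY2 itself. The promoters of the PIF transgenes and the number of lines behind each genotype are not given in the sources used here. Starting material was 18 g with a second cross-linker for CRY2 and 2 g without it for the PIFs.

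The authors deposited 1 list of peaks per protein with the replicates pooled: 7320 peaks for CRY2, 9925 for PIF4 and 3767 for PIF5. The strength of a peak is its fold enrichment over the control, as the authors' peak caller gave it, with a median of 2.29 in the CRY2 list, 2.46 in the PIF4 list and 2.40 in the PIF5 list. With pooled replicates and no read depth in the files, no value below has an error and no difference between genes or proteins could be tested. Fold enrichments are therefore ranked within a list and not compared between lists, and counts of members are set beside the share of all genes under the same rule.

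Every clade A PP2C gene had a CRY2 peak within 3 kb, 8 of the 9 had a PIF4 peak and 5 had a PIF5 peak. Of all nuclear protein-coding genes, 46.5% had a CRY2 peak by this rule, 57.4% a PIF4 peak and 27.7% a PIF5 peak. ABI1, ABI2, PP2CA, HAI1 and HAI2 had peaks of all 3 proteins, as did 21.1% of all genes. HAB1, HAB2 and HAI3 had CRY2 and PIF4 peaks without PIF5 (15.5% of all genes), and AHG1 had a CRY2 peak alone (9.44%). No member was without a peak, whereas 32.6% of all genes were.

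How near the peaks had to lie changed these counts. Within 1 kb, 5 members had a CRY2 peak (32.3% of all genes), 7 a PIF4 peak (41.7%) and 5 a PIF5 peak (17.8%), and PP2CA and HAI2 were the 2 members with all 3 (12.2%). When the peak had to overlap the gene itself, CRY2 was at HAB1, HAB2, PP2CA and HAI2 (23.5% of all genes), PIF4 at these 4 and HAI1 (30.7%), and PIF5 at PP2CA, HAI1 and HAI2 (11.9%). All 3 proteins then met at PP2CA and HAI2 (7.64% of all genes). Nearest to the limit of 3 kb, the PIF4 peak of 4.0 at PP2CA began 2892 bp from the gene, and just outside it a PIF4 peak of 1.93 lay 3127 bp from HAI2.

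**Figure D1:**
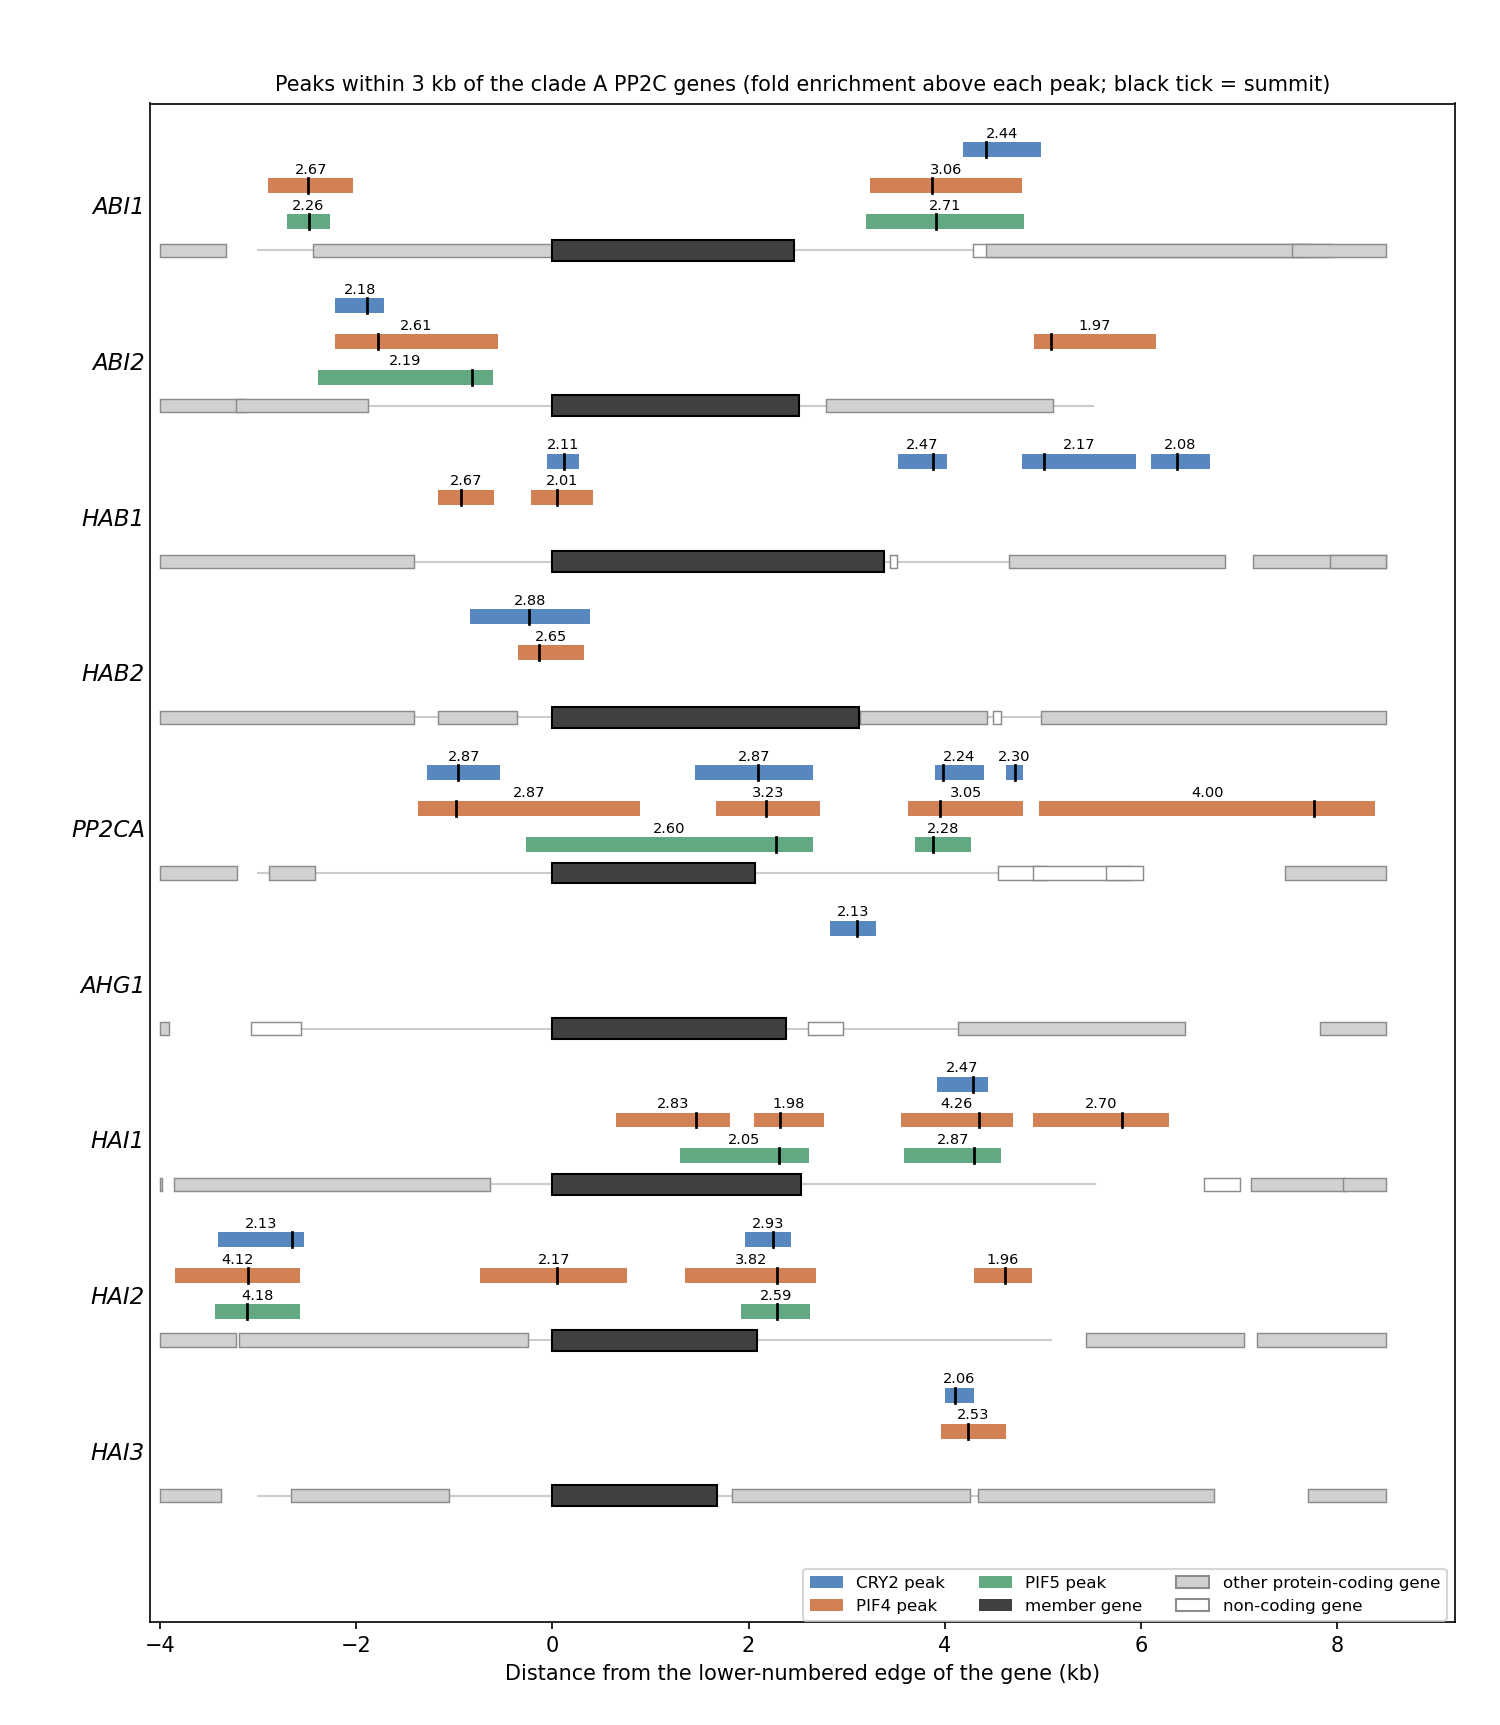
Peaks of CRY2, PIF4 and PIF5 within 3 kb of each clade A PP2C gene, drawn by distance in kb from the lower-numbered edge of the gene, since the strand was not in the gene table; bars are peaks, black ticks summits and numbers fold enrichments, and the grey line spans the gene and 3 kb to each side. PP2CA, HAI1 and HAI2 hold most of the PIF4 peaks, AHG1 holds a single CRY2 peak, and the HAI3 peaks lie more than 2 kb from the gene.

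The 45 peaks were 16 of CRY2, 20 of PIF4 and 9 of PIF5. HAB1 and PP2CA each had 4 CRY2 peaks, a number reached by 1.13% of all genes. PP2CA, HAI1 and HAI2 each had 4 PIF4 peaks, as did 1.33% of all genes at this number or more. Each of these 3 numbers includes a peak with its summit beyond 3 kb, 5695 bp away at PP2CA, 3271 bp at HAI1 and 3100 bp at HAI2. At least 3 PIF4 peaks were at 6.95% of all genes. ABI1, PP2CA, HAI1 and HAI2 each had 2 PIF5 peaks, and 5.91% of all genes had at least that many. A PIF5 peak of HAI2 likewise had its summit 3107 bp away. The 9 members thus carried 1.78 CRY2, 2.22 PIF4 and 1.0 PIF5 peaks per gene, against means of 0.69, 0.90 and 0.35 over all genes.

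Merging peaks that overlapped across the 3 lists gave 22 regions at the members. Of these, 8 held all 3 proteins, 3 held CRY2 with PIF4, 2 held both PIFs without CRY2, 5 held PIF4 alone and 4 held CRY2 alone. Over all 12738 merged regions the corresponding shares were 16.7%, 14.5%, 10.2%, 35.7% and 21.9%. The 8 regions with all 3 proteins belonged to 5 genes: 3 to PP2CA, 2 to HAI2, and 1 each to ABI1, ABI2 and HAI1. A PP2CA region among them reached the 3 kb window by its PIF4 peak alone, its CRY2 and PIF5 peaks lying farther off. Counting only peaks within 3 kb, 7 regions held all 3 proteins, 2 of them at PP2CA, and 6 held PIF4 alone. A wide region counts once, so these numbers do not measure how much DNA was bound.

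HAI2 (AT1G07430) encodes a phosphatase of the highly abscisic acid-induced group, and the gene table also names it AKT1 interacting protein phosphatase 1. Beside its higher-numbered edge, peaks of all 3 proteins had their summits within 47 bp of each other. The CRY2 peak there had a fold enrichment of 2.93 (chr1:2282711-2283177), the strongest of the 16 CRY2 peaks at members, the PIF4 peak 3.82 (chr1:2282102-2283431) and the PIF5 peak 2.59 (chr1:2282669-2283374). The summits lay outside the gene by 166 bp for CRY2, 213 bp for PIF4 and 206 bp for PIF5, and HAI2 was the nearest protein-coding gene to each.

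The strongest PIF peaks assigned to HAI2 lay on its other side. A PIF4 peak of 4.12 and a PIF5 peak of 4.18, the latter within the strongest 3.8% of its list, had summits 7 bp apart and 3100 and 3107 bp from HAI2, so only their flanks reached the 3 kb window. Both summits were inside the neighbouring gene SMO2-1, which encodes a sterol methyl oxidase, and a CRY2 peak of 2.13 with its summit 447 bp from that of PIF4 overlapped them. With only summits within 3 kb counted, the strongest peaks of HAI2 were 3.82 for PIF4 and 2.59 for PIF5. PIF4 alone had 2 weaker peaks at HAI2, of 2.17 just inside the lower-numbered edge and of 1.96 on the higher-numbered side, 2532 bp from the gene and nearer to AT1G07440.

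HAI1 (AT5G59220), also named as a gene associated with senescence, had its strongest peaks away from the gene. On the higher-numbered side a PIF4 peak of 4.26 (chr5:23897957-23899095), the strongest PIF4 peak of any member and within the strongest 3.2% of the PIF4 list, overlapped a PIF5 peak of 2.87 and a CRY2 peak of 2.47. Their summits lay 1811, 1764 and 1749 bp from the gene, and no protein-coding gene was nearer. Inside HAI1, PIF4 had summits of 2.83 and 1.98 and PIF5 a summit of 2.05. The weaker PIF4 summit and the PIF5 summit were 1 bp apart, 219 and 220 bp from the higher-numbered edge, without a CRY2 peak. A further PIF4 peak of 2.7 had its summit 3271 bp from the gene, nearer to AT5G59230.

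PP2CA (AT3G11410), also named AHG3 for the germination of its mutants, which is hypersensitive to abscisic acid, had 10 peaks, the most of any member. HAI2 had 8 and HAI1 7. Near its higher-numbered edge lay a CRY2 peak of 2.87 (chr3:3585239-3586438), a PIF4 peak of 3.23 (chr3:3585455-3586509) and a PIF5 peak of 2.6 (chr3:3583516-3586437). The summits were outside the gene by 28, 115 and 212 bp. On the lower-numbered side, CRY2 and PIF4 peaks of 2.87 each had summits 16 bp apart, 965 and 981 bp from the gene. The PIF5 peak near the higher-numbered edge was 1 wide interval that spanned the gene and touched both PIF4 peaks, with no summit of its own on the lower-numbered side.

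A further cluster lay farther from PP2CA on the higher-numbered side. There the CRY2, PIF4 and PIF5 peaks of 2.24, 3.05 and 2.28 had summits 1909, 1888 and 1809 bp from the gene, and a narrow CRY2 peak of 2.3 followed at 2650 bp. The strongest PIF4 value in the window, 4.0, belonged to a peak with its summit 5695 bp away inside AT3G11420. Within 3 kb by summit the strongest PIF4 peak of PP2CA was the 3.23 beside its edge.

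ABI1 (AT4G26080) and ABI2 (AT5G57050) are a closely related pair named for dominant mutants insensitive to abscisic acid. At ABI1 no peak overlapped the gene and no summit lay nearer to ABI1 than to another protein-coding gene. On the higher-numbered side, PIF4 and PIF5 peaks of 3.06 (chr4:13223153-13224698) and 2.71 (chr4:13223111-13224718) had summits 34 bp apart, 1413 and 1447 bp from ABI1 and 549 and 515 bp from the disease resistance gene RPS2. A CRY2 peak of 2.44 overlapped them with its summit 6 bp from RPS2, inside a long non-coding RNA gene. On the lower-numbered side, PIF4 and PIF5 peaks of 2.67 and 2.26 had summits 1 bp apart at 45 and 44 bp beyond MEK1, a mitogen-activated protein kinase kinase gene whose end overlaps ABI1, with no CRY2 peak.

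At ABI2, overlapping peaks of all 3 proteins lay on the lower-numbered side and were weaker than at ABI1 in each list. The values were 2.18 for CRY2 (chr5:23084909-23085407), 2.61 for PIF4 (chr5:23084903-23086566) and 2.19 for PIF5 (chr5:23084737-23086515). Only the PIF5 summit, 818 bp from ABI2, was nearest to this gene. The PIF4 summit lay 955 bp from it, beside AT5G57040, and the CRY2 summit was inside AT5G57040. A PIF4 peak of 1.97 on the other side had its summit in AT5G57060.

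HAB1 (AT1G72770) and HAB2 (AT1G17550), named for their homology to the ABI pair, had CRY2 and PIF4 peaks at their lower-numbered edges and no PIF5 peak within 3 kb. At HAB2, a CRY2 peak of 2.88 (chr1:6033428-6034654) and a PIF4 peak of 2.65 (chr1:6033918-6034593) crossed the edge of the gene, with summits 100 bp apart and 236 and 136 bp outside it. The CRY2 peak was within the strongest 9.3% of its list and its summit was 126 bp from the small neighbouring gene AT1G17545.

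At HAB1 the pair at the edge was weaker, 2.11 for CRY2 and 2.01 for PIF4, with summits 117 and 44 bp inside the gene. A stronger PIF4 peak of 2.67 lay 933 bp outside the same edge, nearer to AT1G72760. The other 3 CRY2 peaks of HAB1 lay on its higher-numbered side and overlapped no PIF peak. The first of these, 2.47 (chr1:27393468-27393972), had its summit 501 bp from HAB1 just past a tRNA gene, and those of 2.17 and 2.08 had summits inside AT1G72790.

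AHG1 (AT5G51760), whose product acts mainly in seeds, had the fewest peaks. Its only peak was a CRY2 peak of 2.13 (chr5:21029637-21030107) with its summit 720 bp from the higher-numbered edge, beyond a long non-coding RNA gene. In the CRY2 list 81.6% of peaks were as strong or stronger. Together with the 3 at HAB1 it made up the 4 CRY2 peaks at members that overlapped no PIF peak.

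HAI3 (AT2G29380), the remaining gene of the highly abscisic acid-induced group, had a CRY2 peak of 2.06 (chr2:12612678-12612969) and a PIF4 peak of 2.53 (chr2:12612636-12613296), both farther than 2 kb from the gene. Their summits, 138 bp apart, were inside SMO2-2, which encodes another sterol methyl oxidase, so neither was nearest to HAI3. The CRY2 value was the lowest of the 16 at members, with 93.9% of the list as strong or stronger. HAI2 and HAI3 both have an SMO2 gene as a direct neighbour, and in both cases a CRY2 and a PIF4 summit lay inside it. The CRY2 peak in SMO2-1 was also weak, at 2.13 with 81.6% of the list as strong or stronger. PIF5 had a summit in SMO2-1 and no peak within 3 kb of HAI3. How often other neighbouring genes hold both summits was not counted.

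**Figure D2:**
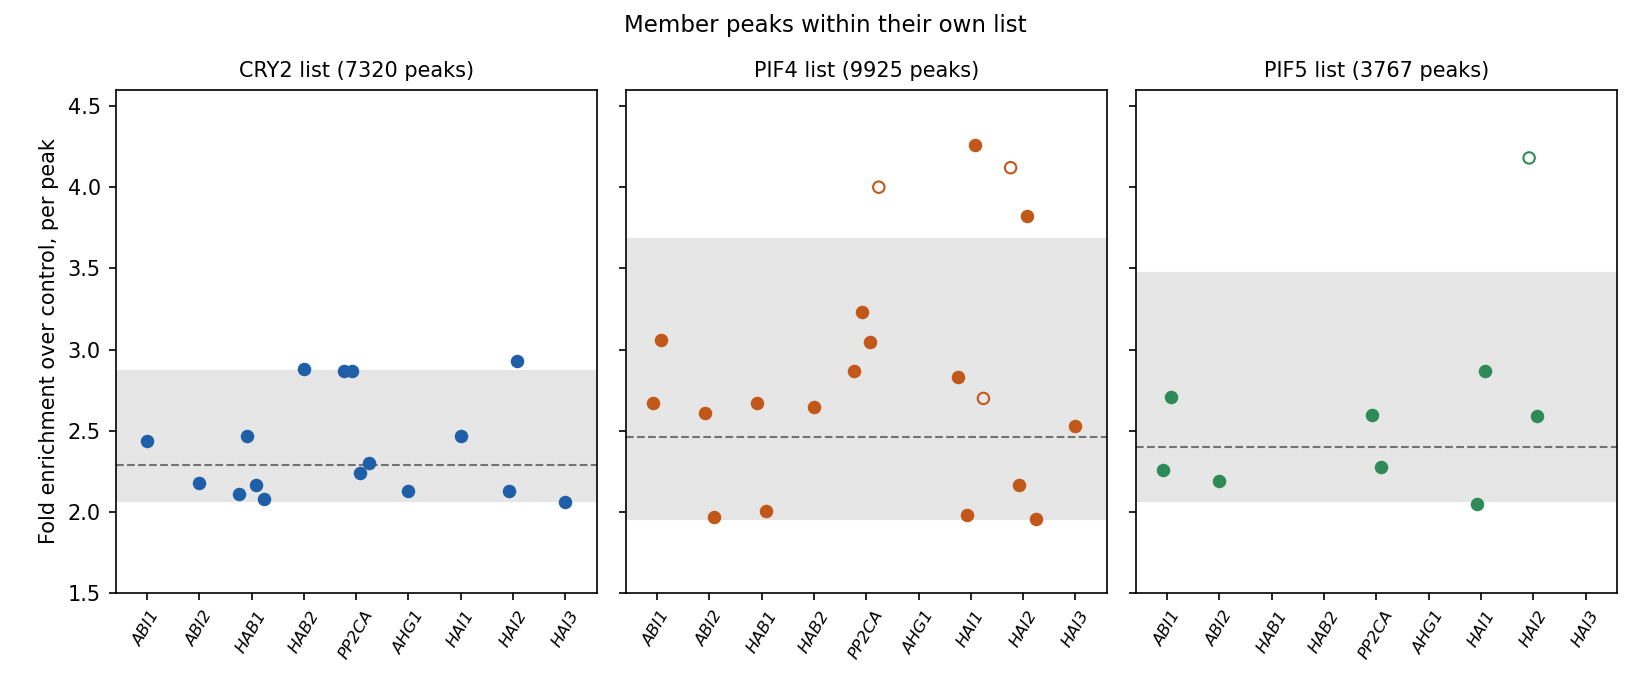
Fold enrichment over control of every member peak (y axis), by gene (x axis) and list (panels); filled points have their summit within 3 kb of the gene and open points beyond it, the grey band spans the 10th to 90th percentile of the whole list and the dashed line is its median. CRY2 points above the band are the 2.88 at HAB2 and the 2.93 at HAI2. PIF4 points above it are in the windows of PP2CA, HAI1 and HAI2, and the PIF5 point above it is the 4.18 at HAI2. Of these, the PIF4 points of 4.0 at PP2CA and 4.12 at HAI2 and the PIF5 point of 4.18 have their summits inside other genes.

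Compared with the rest of their lists, the member peaks covered most of the range below the strongest peaks. CRY2 peaks at members ran from 2.06 to 2.93, with 8 of 16 in the upper 50% of the CRY2 list, and none came near the list's maximum of 7.87. PIF4 peaks ran from 1.96 to 4.26, with 15 of 20 in the upper 50%, and PIF5 peaks from 2.05 to 4.18, with 5 of 9. Over members, the strongest peak had a median of 2.47 in the CRY2 list, 2.87 in the PIF4 list and 2.71 in the PIF5 list, and over all genes with a peak the medians were 2.36, 2.68 and 2.48. The strongest value is taken over all peaks of a gene, and the number of peaks per gene was not matched. The member values include PIF peaks of PP2CA and HAI2 with summits beyond 3 kb.

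Among genes with a peak, the strongest peak of HAI2 stood at percentile 87.7 for CRY2, 93.5 for PIF4 and 95.7 for PIF5, which gave HAI2 the highest mean of the 5 members with all 3. PP2CA had a mean percentile of 78.8, HAI1 77.1, ABI1 64.0 and ABI2 32.0. The values of HAI2 and PP2CA rest in part on the PIF peaks with summits beyond 3 kb. With only summits within 3 kb counted, the mean percentile was 79.3 for HAI2, 78.3 for HAI1 and 74.3 for PP2CA, so HAI2 hardly stood above HAI1 and PP2CA stood below it. Of 5797 genes with peaks in all 3 lists, those nearest to HAI2 in these 3 percentiles were its neighbour SMO2-1, which has the same strongest peaks in its window, and RHA2B and BAT1. RHA2B encodes a RING-H2 finger protein and BAT1 an amino acid transporter. Both had the same values, 2.93, 4.21 and 4.13 for CRY2, PIF4 and PIF5. Whether these are the same peaks, within 3 kb of both genes, was not checked, so RHA2B and BAT1 may not be separate cases. This likeness rests on 3 values per gene and on the HAI2 peaks of 4.12 and 4.18 inside SMO2-1.

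At the members, 12 of 16 CRY2 peaks overlapped a PIF4 peak by at least 1 bp, against 60.4% of the whole CRY2 list. All 9 PIF5 peaks overlapped a PIF4 peak, against 96.4% of the PIF5 list, and 8 of the 9 had a summit within 100 bp of a PIF4 summit, against 79.8% of the PIF5 list. With at least 50% of both peaks overlapping, 6 of the 9 qualified, slightly below the 70.9% of the PIF5 list. For CRY2, 7 of 16 peaks had a summit within 100 bp of a PIF4 summit, against 28.3% of the CRY2 list. When at least 50% of both peaks had to overlap, 4 of 16 CRY2 peaks qualified, against 33.3% of the CRY2 list, so the members' share lay above that of the list by the first 2 rules and below it by this one. The 7 with near summits were at HAB1, HAB2, PP2CA, HAI1 and HAI2, with 3 of them at PP2CA. At ABI1, ABI2 and HAI3 the CRY2 summit was 543, 111 and 138 bp from that of PIF4.

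The 12 member PIF4 peaks that overlapped a PIF5 peak had a median of 3.06, with a range of 1.98 to 4.26, and the 8 that did not had a median of 2.35 and a range of 1.96 to 2.7. The ranges overlapped below 2.7. Overlap here means at least 1 bp, and the summits could lie far apart. The PIF5 summit was 3261 bp from that of the 2.87 at PP2CA, 955 bp from the 2.61 at ABI2 and 851 bp from the 2.83 at HAI1. In the whole PIF4 list the share overlapping PIF5 was likewise higher at higher PIF4 values, from 5.44% in the weakest 10% of peaks to 95.4% in the strongest. Of PIF4 peaks within 0.1 of the 2.67 at HAB1, 36.6% overlapped PIF5, and 35.9% did so around the 2.65 of HAB2 and 27% around the 2.53 of HAI3. Thus most PIF4 peaks of that strength had no PIF5 peak in this shorter list. The PIF4 peak of 1.98 inside HAI1 overlapped PIF5, as did 4.57% of PIF4 peaks within 0.1 of it.

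**Figure D3:**
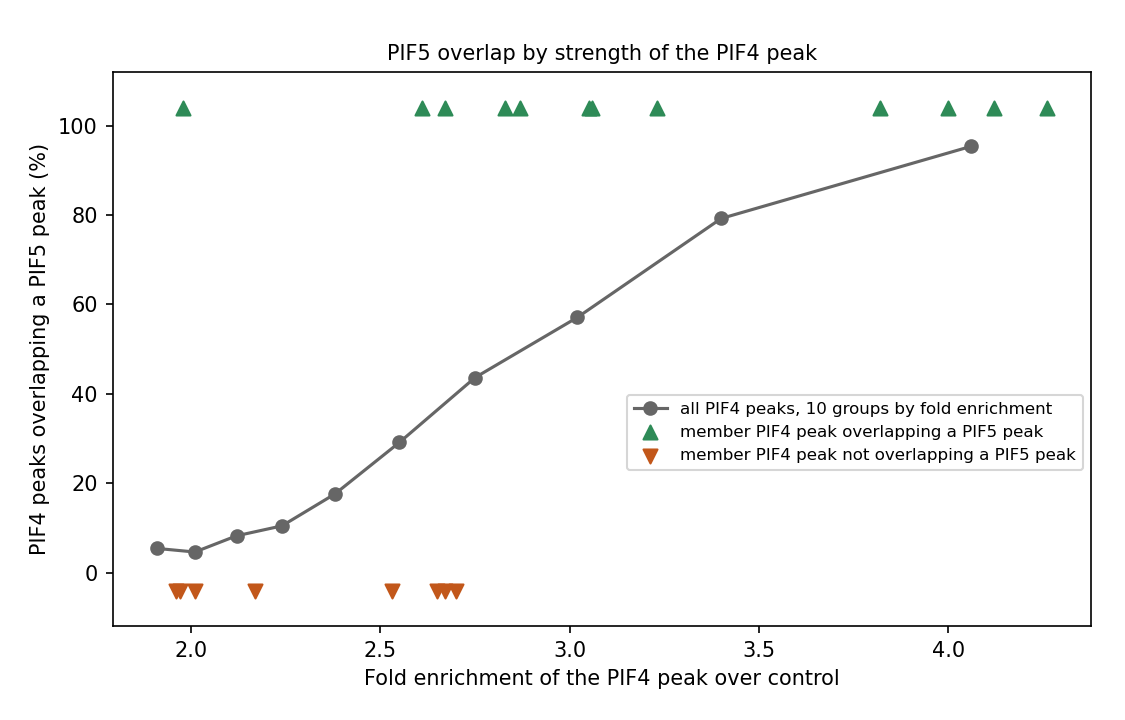
Share of PIF4 peaks that overlap a PIF5 peak (y axis, %) against PIF4 fold enrichment (x axis) for the whole PIF4 list in 10 equal groups (grey), with the 20 member PIF4 peaks marked above (overlapping PIF5) or below (not overlapping). By the rule of at least 1 bp, every member PIF4 peak above 2.7 overlaps PIF5, and the 8 without PIF5 lie at 2.7 or less.

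The other genes of the abscisic acid pathway were counted by the same rule, in lists drawn up by role. Of 42 such genes, 25 had a CRY2 peak (59.5%, against 46.5% of all genes), 29 a PIF4 peak (69.0% against 57.4%), 19 a PIF5 peak (45.2% against 27.7%) and 19 all 3 (45.2% against 21.1%). When each peak went to the gene nearest its summit, CRY2 was at 18 (22.1% of all genes) and PIF4 at 21 (28.7%). PIF5 was then at 10 (11.9%) and all 3 at 10 (7.21%). The values given below for pathway genes are the strongest within 3 kb, and their summits can lie nearer to another gene. Among the 14 PYR/PYL receptor genes the counts within 3 kb were 9, 10, 6 and 6, and by the nearest gene 6, 6, 3 and 3. PYL5 had the highest mean percentile of the receptor genes, 91.9, with 3.56 for CRY2, 3.82 for PIF4 and 3.63 for PIF5. PYL10 had 2.76, 3.23 and 2.39, PYL13 had 2.06, 4.29 and 3.12, and PYL4 had 3.37, 3.08 and 2.14.

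Of the 5 SnRK2 kinase genes in the list, 4 had a CRY2 peak (80%, against 46.5% of all genes), 4 a PIF4 peak (80% against 57.4%) and 3 a PIF5 peak (60% against 27.7%). By the gene nearest the summit the counts were 3, 2 and 1 (22.1%, 28.7% and 11.9% of all genes). SnRK2.3 had values of 3.50, 4.12 and 2.49 for CRY2, PIF4 and PIF5, SnRK2.8 had 2.41, 3.42 and 2.64, and SnRK2.7 had 2.76, 2.8 and 2.49. Of the 7 transcription factor genes, 3 had a CRY2 peak (42.9%), 4 a PIF4 peak (57.1%) and 3 a PIF5 peak (42.9%). The CRY2 and PIF4 shares were no higher than the 46.5% and 57.4% of all genes, and the PIF5 share was above 27.7%. ABF3, a bZIP factor of drought responses, had 2.50, 4.56 and 4.47, ABI5, a bZIP factor of germination, had 2.09, 4.0 and 2.42, and ABF2 had 2.53, 2.24 and 2.29. ABF4, ABI3 and ABI4 had no peak of any list within 3 kb.

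Among genes that make or break down the hormone, 5 of 9 synthesis genes had a CRY2 peak (55.6%, against 46.5% of all genes), 6 a PIF4 peak (66.7% against 57.4%) and 4 a PIF5 peak (44.4% against 27.7%). NCED3, which cleaves carotenoids in the step that limits stress-induced synthesis, had 2.56, 3.15 and 2.72 for CRY2, PIF4 and PIF5, NCED9 had 3.04, 2.87 and 2.52, ABA1 had 2.18, 4.48 and 2.67, and ABA2 had 2.24, 2.85 and 2.07. All 4 CYP707A genes, which encode the enzymes that hydroxylate abscisic acid, had a PIF4 peak (100%, against 57.4% of all genes), that of CYP707A2 being 2.15. CYP707A1, CYP707A3 and CYP707A4 also had CRY2 peaks (75% against 46.5%) and PIF5 peaks (75% against 27.7%). CYP707A3 had 2.81, 2.55 and 3.00. Of the output genes SLAC1, RD29B and RAB18, RD29B alone had peaks, of 2.66 for CRY2 and 2.1 for PIF4.

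Clade D PP2C genes, several of whose products act on plasma membrane proton pumps in cell expansion, served as a second family of phosphatases. Of these 9 genes, 5 had a CRY2 peak (55.6%, against 46.5% of all genes) and 8 a PIF4 peak (88.9% against 57.4%). A PIF5 peak was at 5 (55.6% against 27.7%), and 5 had all 3 (55.6% against 21.1%). By the 3 kb rule, clades A and D thus had equal counts for PIF4, PIF5 and all 3 proteins, and counts of 9 and 5 for CRY2. The highest mean percentiles in clade D were at AT3G51370, with 3.10, 4.24 and 3.19 for CRY2, PIF4 and PIF5, and AT3G17090, with 2.64, 4.22 and 3.46. No test separates the clades. By the rule that gives each peak to the gene nearest its summit, CRY2 was at 5 clade A and 3 clade D genes, against 22.1% of all genes. PIF4 was then at 5 and 4 (28.7% of all genes), PIF5 at 4 and 3 (11.9%) and all 3 at 3 and 1 (7.21%).

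**Figure D4:**
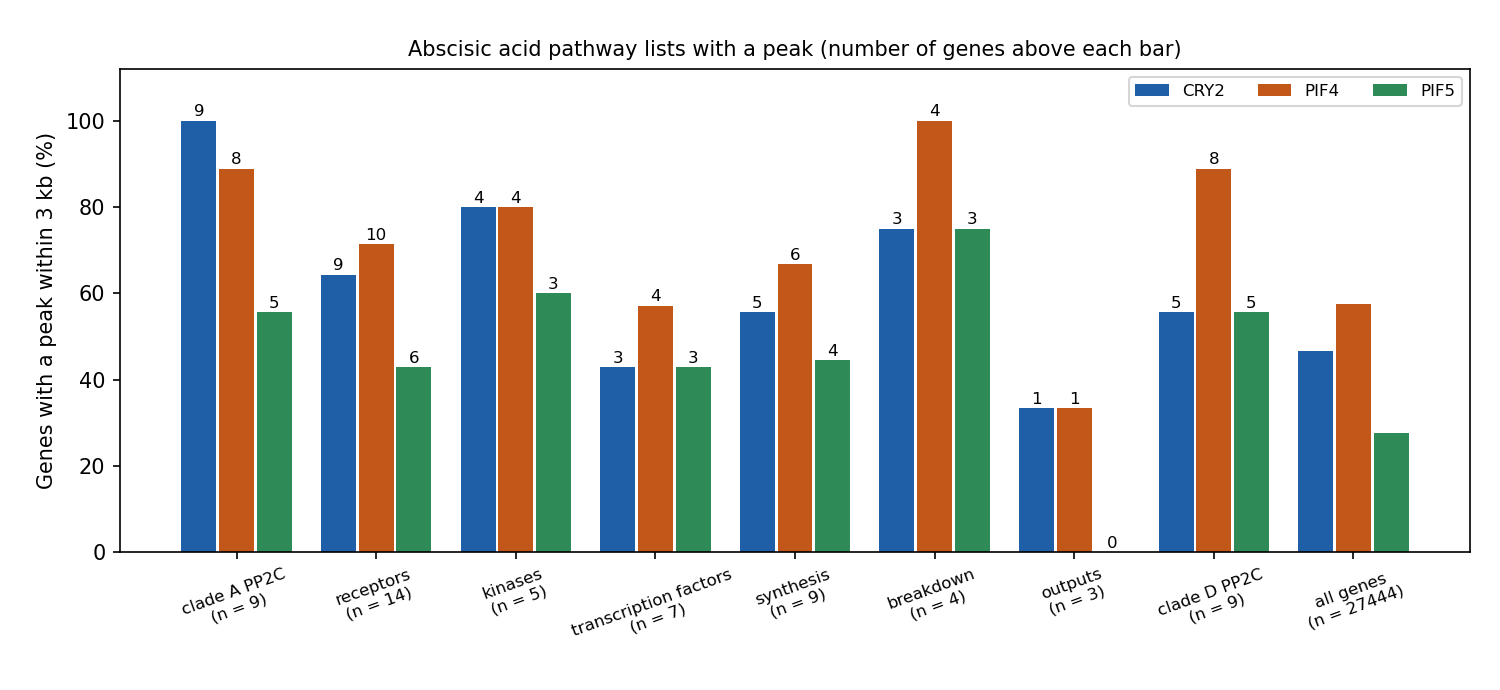
Percentage of genes in each list (x axis) with a CRY2, PIF4 or PIF5 peak within 3 kb (y axis, %), with the number of genes above each bar and all nuclear protein-coding genes at the right. Clade A PP2C genes stand at 9, 8 and 5 of 9 for CRY2, PIF4 and PIF5, and the share of all genes is 46.5%, 57.4% and 27.7%.

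Because genes lie close together, the gene nearest to a summit was often another than the PP2C gene. Of the 45 peaks, 25 had a clade A PP2C gene as the protein-coding gene nearest to the summit, 9 of 16 for CRY2, 10 of 20 for PIF4 and 6 of 9 for PIF5. ABI1 and HAI3 were nearest to none. By this rule PP2CA, HAI1 and HAI2 were the 3 members with all 3 proteins, against 7.21% of all genes. Of the 45 summits, 6 lay inside a member gene, 1 of CRY2 at HAB1, 4 of PIF4 at HAB1, HAI1 and HAI2, and 1 of PIF5 at HAI1. Neither this count nor the 25 was set beside a like count for other genes, so neither marks a trait of the members.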

How the data were processed

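Per the submitters' processing notes, the tools used were CASAVA 1.8.2, Bowtie2 2.1.0 and MACS2 2.0.10 with genome build TAIR10; their settings are not given in the sources used here. The deposited files were 1 peak list per protein, called on pooled replicates per the names of the peaks. The strength of a peak was deposited as a ratio, the fold enrichment over control, beside a deposited -log10 p. The deposited score restates that -log10 p on a scale 10 times larger, cut to whole numbers, and was not used. The q-value column held a constant. Columns of per-sample values not used numbered 0.

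Genes came from the RefSeq table of assembly TAIR10.1, which gives no strand or sequence, so the planned distances to gene starts and motif counts were left out and no gene coordinates are printed. Its frame was checked: 49.3% of PIF4 summits lay outside genes and within 1 kb of one, and 20.2% after a shift of 2000 bp. Peak positions are on TAIR10, counted from 1. Peaks were assigned and overlapped with Python 3.11.15, numpy 2.4.6 and pandas 2.3.3, and plotted with matplotlib 3.10.9. On simulated data, 200 of 200 placed peaks were assigned as placed. All 60 listed locus tags were found in the table.

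The 9 members and all gene lists were chosen with earlier results of these data known. The text names all members, the genes nearest to their summits, the 3 genes most like the member with the highest mean percentile, and up to 4 genes per pathway list with peaks of all 3 proteins. Alternatives covered the window, the summit, the nearest gene, stricter lists, lists of equal length and the overlap rule.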

Additional observations from a re-analysis of the deposited data

How the results depend on the processing

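Members with a CRY2 peak numbered 9, and 5 with a window of 1 kb, 4 with the gene body alone and 5 when each peak went to the gene nearest its summit. For PIF4 the 8 members became 5 with the gene body alone and 5 by the nearest gene, and for PIF5 the 5 became 3 with the gene body alone. The 5 members with all 3 proteins became 2 with a window of 1 kb, 2 with the gene body alone and 3 by the nearest gene. Counting summits only left each of these 4 counts the same. With the upper 50% of each list, 6 members had a CRY2 peak (27.7% of all genes), 8 a PIF4 peak (35.7%), 4 a PIF5 peak (15.6%) and 4 all 3 (9.26%). With lists of equal length the counts were 6 (28.8%), 6 (28.9%), 5 (27.7%) and 4 (13.1%). These counts stayed within 1.5 times, but ABI2, AHG1 and HAI3 had no CRY2 peak under either setting. CRY2 peaks overlapping a PIF4 peak went from 12 of 16 (60.4% of the list) to 4 of 16 when 50% of both peaks had to overlap (33.3% of the list, so the members then lay below it), 7 of 16 with summits within 100 bp (28.3%), 5 of 7 with a window of 1 kb, 7 of 8 with the upper 50% of each list (46.5%) and 6 of 7 with lists of equal length (39.7%). PIF5 peaks overlapping PIF4 went from 9 to 5 with a window of 1 kb (of 5 left) and 5 with the upper 50% (of 5), since these settings keep fewer peaks. When 50% of both peaks had to overlap, 6 of 9 remained (70.9% of the list).

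The strongest peak of a member was the same by -log10 p in 22 of 22 cases, changed with a window of 1 kb in 5 of 17, and changed in 3 of 22 when only summits counted. That setting, its mean percentiles and the count of regions by peaks within 3 kb were chosen after seeing the data. Among genes of the members' range of length, 51.0% had a CRY2, 61.9% a PIF4 and 30.5% a PIF5 peak. The G-box count was not run, as no sequence was used here. No paired analysis was possible because the lists pool the replicates. For the same reason leaving out a replicate was not run, and depth, which sets how many weak peaks a list holds, is unknown, so an unlisted peak is not an absence of binding.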
